A study of Mus musculus with 122 samples.

Results

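Alveolar macrophages, the phagocytes of the lung air spaces, are recognised by a set of genes that includes some for surface and secreted proteins. The genes described here are 9 genes grouped as alveolar macrophage identity genes, Siglecf, Car4, Krt79, Krt19, Ear1, Ear2, Plet1, Flt1 and Slc7a2, taken by gene name from the 22050 genes of each of 3 count tables. The grouping does not mean that each encodes a surface protein or is absent from other cells. All 9 were found in every table. RNA was counted by 3′ polyA sequencing in 99 libraries (31 groups) of sorted mouse cells, and C/EBPβ, the transcription factor encoded by Cebpb, was removed, reduced to a single gene copy or replaced by a short form in most of the mutant groups. The series lists 122 samples, and the labels state the comparison of Cebpb mutants with controls as its purpose.

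The adult macrophages were obtained by bronchoalveolar lavage and sorted, 500 to 20000 cells per library. The whole-body knockout (allele C/EBPb tm1Pfj, mixed background) gave Cebpb +/+ cells (n = 4) and Cebpb -/- cells in a CD11b low (n = 4) and a CD11b high fraction (n = 4). The same allele was measured in facility 1 females (wild-type n = 2, heterozygous n = 3, knockout n = 2), facility 2 females (wild-type n = 3, knockout n = 2) and male mice (wild-type n = 2, knockout n = 2). The facility of the males is not given, so sex and facility cannot be told apart. A floxed allele (Cebpbtm1.1Elgaz/J, C57BL/6) was deleted with LyzM Cre/Cre, which acts in myeloid cells (Cre-free Cebpb flox/flox controls n = 2, deleted n = 2). It was also deleted with CD11c +/Cre, driven by the Itgax promoter of macrophages and dendritic cells (CD11c +/Cre controls without the floxed allele n = 3, deleted n = 4). Lip mice (C/EBPtm1.2Acle, mixed background) carry an allele for the short isoform of the protein, and gave Lip +/+ cells (n = 3) and Lip/Lip cells of low (n = 4) and high CD11b (n = 4). A further table, sequenced beside chromatin samples, held Cebpb wild-type (n = 3) and knockout (n = 3) and Lip wild-type (n = 4) and Lip (n = 4) macrophages that were not split by CD11b.

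Fetal cells came from digested whole lung at embryonic day 18 (E18). Premature alveolar macrophages were sorted from Cebpb wild-type (n = 3) and knockout (n = 4) fetuses and from Csf2rb wild-type (n = 4) and knockout (n = 3) fetuses (Csf2rbtm1Cgb/J, C57BL/6), which lack the β chain of the GM-CSF receptor. Ly6Chi fetal lung monocytes came from Cebpb wild-type (n = 3) and knockout (n = 4) fetuses. In the chimeras, lethally irradiated CD45.1/2 recipients aged 8 to 12 weeks received 33% wild-type CD45.1/1 and 66% CD11c-Cre Cebpb fl/fl CD45.2/2 marrow. Alveolar macrophages of both donors were sorted from whole lung after 5 weeks (3 wild-type, 4 knockout) and 10 weeks (4 wild-type, 3 knockout). Nothing in the labels states that replicates are separate animals, and p-values then measure only the spread between these libraries.

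Totals ran from 642269 to 17834909 counts per library. Cebpb itself was at 2.48% to 14% of its control in the adult whole-body, Cre and chimera knockouts, at 60.5% in facility 1 heterozygotes (951 against 1570 CPM) (adult whole-body allele, facility 1), and at 155% and 124% in Lip CD11b low and high cells. E18 Csf2rb knockouts had 293 to 360 CPM of Csf2rb against 763 to 1170 in their controls. The deleted part of Csf2rb is not given in the labels, so 3′ reads do not check that allele. CPM are counts per 1000000 scaled by the TMM factors of the experiment, and a gene's levels are set side by side here only within an experiment unless said otherwise. Alveolar macrophage markers outside the described genes (6 genes: Pparg, Fabp4, Marco, Chil3, Itgax, Mrc1) were summed per library. They reached 5250 to 7050 CPM in Cebpb wild-type, 1400 to 2310 in CD11b low and 608 to 1540 in CD11b high knockout libraries. Facility 2 knockouts held 460 and 868 CPM. LyzMCre controls held 20200 and 21600 and deleted cells 3220 and 6010 CPM. CD11cCre controls held 34000 to 37300 and deleted cells 8110 to 14000 CPM. Wild-type E18 Ly6Chi monocytes, in another experiment, held 450 to 598 CPM. The sum alone does not tell what cells the knockout libraries hold. Markers of eosinophils, which also carry Siglec-F and Ear proteins, summed to at most 0.961 CPM in every adult lavage group, with 4 to 6 of 6 genes at 0. In bulk samples, fewer cells of a type and less RNA per cell cannot be told apart.

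Siglec-F is a sialic acid-binding lectin and Car4 a membrane-anchored carbonic anhydrase, and both are standard surface markers of mouse alveolar macrophages. Krt79 and Krt19 encode keratins, intermediate filament proteins best known from epithelium. Ear1 and Ear2 encode secreted ribonucleases of the eosinophil-associated family, Plet1 a membrane-anchored surface protein, Flt1 the VEGF receptor 1, and Slc7a2 a carrier that imports arginine and other cationic amino acids. GM-CSF made by the lung epithelium drives the fetal monocyte to become an alveolar macrophage, and C/EBPβ is a basic leucine zipper factor expressed in that lineage.

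In GRCm38, Siglecf lies at chr7:43351341-43359475, Car4 at chr11:84957754-84966054, Krt79 at chr15:101929332-101940324, Krt19 at chr11:100140810-100145926, Plet1 at chr9:50494525-50505639, Flt1 at chr5:147561604-147726438 and Slc7a2 at chr8:40862341-40922070. Ear1 (chr14:43818765-43819639) and Ear2 (chr14:44102654-44103531) lie in the Ear gene cluster. C/EBPβ regions of wild-type lavage macrophages, taken where both ChIP peak lists had a peak, lay within 10 kb of all 9 genes, against 39.2% of 20545 genes and 63.5% of the 8230 of these tested in the CD11b-split experiment. The ChIP regions of Ear1 (chr14:43819006-43819947) and Ear2 (chr14:44102201-44103338) covered the start sites, with summits 20 and 50 bases downstream. Plet1 had a region just upstream (chr9:50493829-50494480), with its summit 387 bases before the start. These 3 are shown because a script found the C/EBP motif TTGCNNAA in their RefSeq promoters (GRCm38.p6, 250 bases before to 50 after the start) and not in those of Siglecf, Car4, Krt79 or Flt1. Krt19 and Slc7a2 had no entry. Both strands were searched, and 2906 of 27025 promoters of this length (10.8%) hold the motif. Capitals mark the match, at -92 in Ear1 (chr14:43819590-43819889, minus strand), at -90 in Ear2 (chr14:44102404-44102703, plus strand) and at -198 in Plet1 (chr9:50494275-50494574, plus strand, where the motif reads on the opposite strand).
Ear1: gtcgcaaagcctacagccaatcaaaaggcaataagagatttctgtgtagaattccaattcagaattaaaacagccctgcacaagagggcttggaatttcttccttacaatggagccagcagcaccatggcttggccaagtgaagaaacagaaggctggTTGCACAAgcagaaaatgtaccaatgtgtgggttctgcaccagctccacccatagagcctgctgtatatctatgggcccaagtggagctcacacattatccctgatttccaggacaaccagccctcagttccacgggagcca
Ear2: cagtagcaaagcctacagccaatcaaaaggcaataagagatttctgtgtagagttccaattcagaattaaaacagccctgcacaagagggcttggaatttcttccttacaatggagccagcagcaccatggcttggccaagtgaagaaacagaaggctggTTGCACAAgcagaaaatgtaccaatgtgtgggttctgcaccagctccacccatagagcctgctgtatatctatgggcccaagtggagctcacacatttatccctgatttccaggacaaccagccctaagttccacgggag
Plet1: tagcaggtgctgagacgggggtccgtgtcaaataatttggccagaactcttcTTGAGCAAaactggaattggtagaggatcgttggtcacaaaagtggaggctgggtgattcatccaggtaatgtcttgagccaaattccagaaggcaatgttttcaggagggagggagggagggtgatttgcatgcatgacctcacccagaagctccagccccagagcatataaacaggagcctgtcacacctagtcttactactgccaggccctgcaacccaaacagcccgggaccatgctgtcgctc
Aligned without gaps at a shift of 2 bases, the Ear1 and Ear2 promoters were identical at 268 of 298 positions (89.9%). Transcripts of the Ear family are near-identical as well, and the sources used here do not say how the authors counted reads shared by copies. The division of reads between Ear1 and Ear2 is therefore uncertain, and their summed counts were tested as an alternative.

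Of the 9 genes, 6 were lower than wild type in CD11b low and 7 in CD11b high knockout macrophages. Flt1 was higher in both. The labels name no CD11b fraction for the wild type, so genotype and CD11b fraction cannot be told apart in these comparisons. Krt79 fell furthest in both fractions. Siglecf, Krt19, Ear2 and Plet1 separated the fractions, with far lower levels in CD11b high cells, whereas Car4, Krt79 and Ear1 were near the bottom of their range in both. In CD11b low cells 6 fell and 1 rose, against 6.83% lower and 8.29% higher among all 8502 genes tested, with a median log2 fold change of -1.1 over the 9 genes. In CD11b high cells 7 fell and 1 rose (all genes 11.8% and 12.2%), with a median of -4.04. These comparisons share their wild-type libraries. The median over all genes tested lay between -0.11 and 0.04 in every comparison and difference reported here.

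Siglecf stood at 344, 437, 331 and 309 CPM in wild-type, at 106, 57.2, 53.8 and 52.8 in CD11b low and at 14.5, 11.1, 28.8 and 17.3 in CD11b high knockout libraries. The 3 groups did not overlap. The log2 fold change was -2.37 (SE 0.26, adjusted p = 2.27e-06) in CD11b low and -4.35 (SE 0.3, adjusted p = 3e-09) in CD11b high cells, and CD11b high lay below CD11b low by -1.98 (SE 0.3, adjusted p = 0.000482). Car4 stood at 221, 653, 541 and 476 CPM in wild-type, 11.8, 67.6, 15.3 and 7.55 in CD11b low and 13.7, 7.65, 33 and 1.49 in CD11b high cells. Knockout fractions overlapped each other and not the wild type, with log2 fold changes of -4.4 (SE 0.71, adjusted p = 0.000817) and -5.31 (SE 0.75, adjusted p = 0.000154), and their difference of -0.91 did not pass (adjusted p = 0.799).

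The 2 keratins parted. Krt79 stood at 779, 968, 675 and 717 CPM in wild-type and at 2.27 to 41.6 CPM in all 8 knockout libraries of both fractions, which is 1.99% and 1.33% of the wild-type mean (log2 fold change -5.94, SE 0.66, adjusted p = 1.29e-05 in CD11b low). Krt19 was at 615, 509, 576 and 717 CPM in wild-type, 373, 319, 264 and 166 in CD11b low and 41.9, 24.7, 33 and 45 in CD11b high cells. CD11b low cells thus kept 46.4% and CD11b high cells 5.99% of wild-type Krt19, without overlap among the groups. The fold changes of Krt19 were -1.1 (SE 0.24, adjusted p = 0.00301) and -4.04 (SE 0.28, adjusted p = 2.77e-09), and high fell below low by 2.94 on the log2 scale (SE 0.27, adjusted p = 8.37e-06). Krt79 differed by -0.44 between the fractions (SE 0.76, adjusted p = 0.927). Markers of epithelium, where keratins abound, summed to 40.2 to 141 CPM in wild-type, 56.6 to 120 in CD11b low and 14.5 to 22 in CD11b high libraries, and their part in the Krt19 difference was not tested.

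The ribonucleases parted in the same manner. Ear1 was at 222, 318, 299 and 376 CPM in wild-type, 22.8, 33, 10.2 and 6.29 in CD11b low and 24.4, 2.55, 11 and 5.45 in CD11b high cells, so that the knockout fractions overlapped far below the wild type (log2 fold changes -4.15 and -4.83, adjusted p = 3.39e-06 and 4.8e-07). Ear2 was at 1820, 2180, 1810 and 2090 CPM in wild-type, 1480, 692, 855 and 1150 in CD11b low and 110, 90.1, 128 and 247 in CD11b high cells. Its fall in CD11b low cells, -0.92 (SE 0.28, adjusted p = 0.0322), was lost when any of 6 single libraries was left out, with adjusted p from 0.0501 without wild-type replicate 1 to 0.105 without CD11b low replicate 3. The others of these were wild-type replicates 2 and 4 and CD11b low replicates 2 and 4. In a fit of all libraries of the table it did not pass either (-0.90, adjusted p = 0.0775). The fall in CD11b high cells was -3.77 (SE 0.31, adjusted p = 3.35e-08). Summed counts of Ear1 and Ear2 changed by -1.1 in CD11b low cells (adjusted p = 0.00835).

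Plet1 kept 88.8% of its wild-type mean in CD11b low cells, with 1130, 500, 916 and 923 CPM against 952, 1130, 910 and 915 (log2 fold change -0.17, SE 0.3, adjusted p = 0.751). In CD11b high cells it fell to 115, 158, 372 and 286 CPM (-2.08, SE 0.31, adjusted p = 4.74e-05). Flt1 went the other way. Its wild-type libraries spread from 6.7 to 60.2 CPM (6.7, 17.8, 60.2 and 46.6), and all CD11b low (312, 213, 331 and 169) and CD11b high libraries (72.4, 102, 155 and 103) lay above them, with rises of 2.88 (SE 0.42, adjusted p = 7.67e-05) and 1.61 (SE 0.41, adjusted p = 0.00737). Slc7a2 showed overlapping levels in all 3 groups, 289 to 491, 343 to 449 and 371 to 557 CPM, and log2 fold changes of 0.09 (SE 0.21) and 0.19 (SE 0.21) that did not pass. Endothelial markers, whose cells also carry Flt1, summed to 38.8 to 139 CPM in wild-type and 140 to 317 CPM in knockout libraries of both fractions, and their part in the Flt1 rise was not tested. Between the fractions, 4 of the 9 genes were lower in CD11b high cells and none higher (all genes 2.61% and 1.19%).

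**Figure D1:**
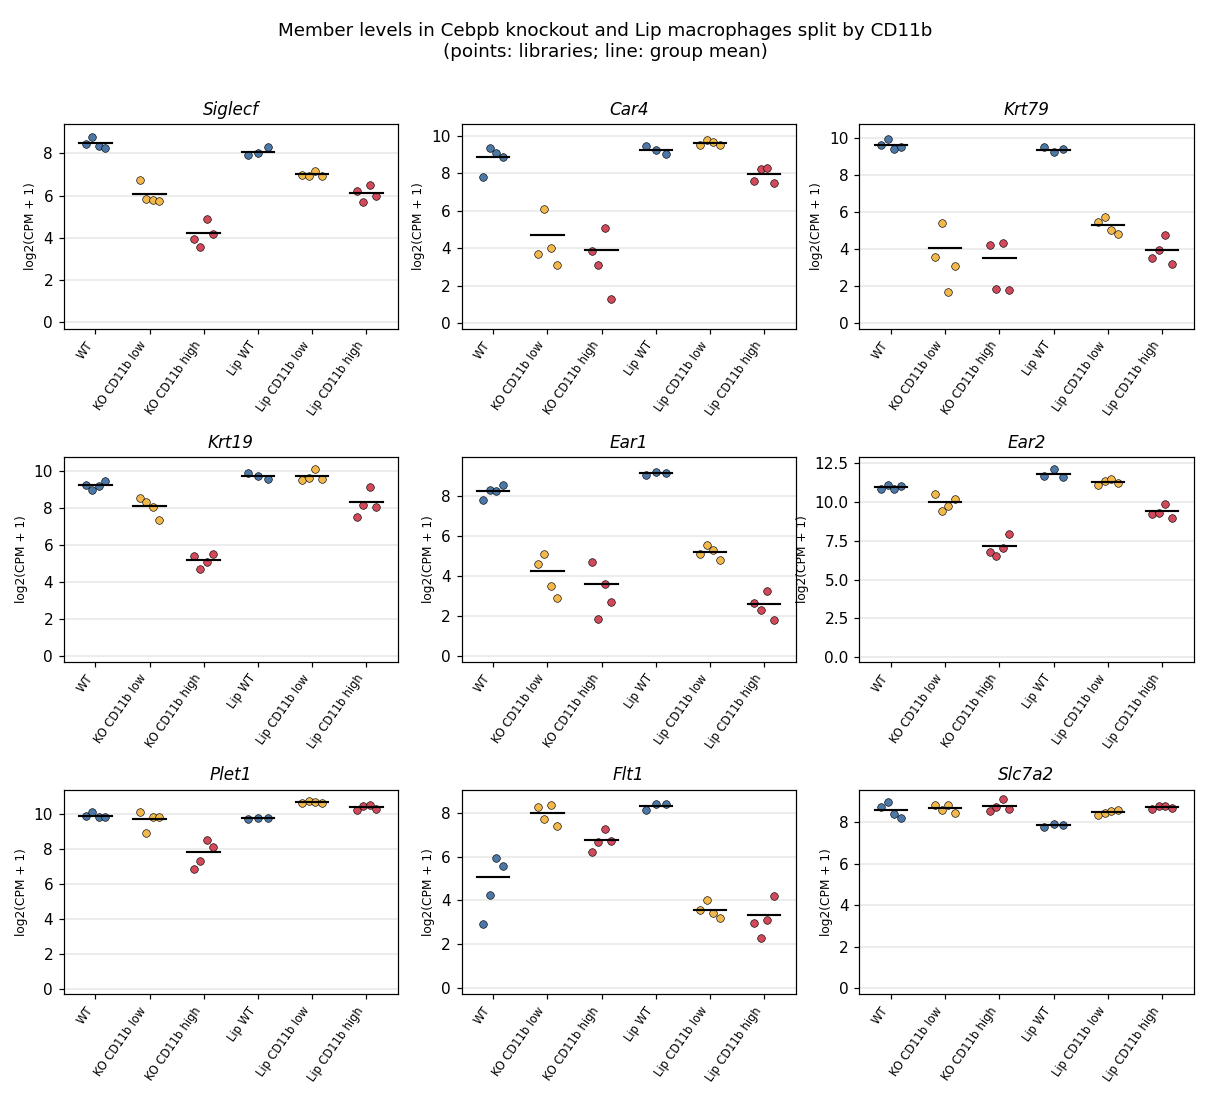
Levels of the 9 genes in each library, as log2(CPM + 1), for the Cebpb knockout and the Lip mutant, each split into CD11b low and CD11b high cells beside its own wild type (points, libraries; line, group mean). Siglecf steps down from 355 CPM to 67.6 and 17.9 CPM in the knockout, Krt79 is at the bottom in both knockout fractions, and Flt1 is high in knockout and low in Lip cells.

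In facility 1 females with a single copy of Cebpb, Car4 was the gene that passed the test. Of the 9 genes, 1 fell in heterozygotes and none rose (all 11040 genes, 0.172% lower and 0.462% higher), with a median of 0.46. In the knockouts 6 fell and 1 rose against wild type (all genes 10.8% and 12.5%, median of the 9 genes -2.71), and 6 fell and none rose against heterozygotes (all genes 9.54% and 11.6%). Wild types and knockouts are shared among these comparisons.

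Car4 was at 419 and 885 CPM in wild-type, 140, 57.7 and 52.2 in heterozygous and 6.65 and 1.78 in knockout libraries of facility 1. These 3 levels did not overlap, and heterozygotes kept 12.8% of the wild-type mean while Cebpb kept 60.5%. The heterozygous fall was -2.97 (SE 0.46, adjusted p = 0.0107), and it was lost without wild-type replicate 2 (-2.35, adjusted p = 0.128) and with the replicate number as a block (-2.77, adjusted p = 0.358). From heterozygote to knockout Car4 fell by a further 4.25 on the log2 scale (SE 0.62, adjusted p = 0.000318). Krt79 also lay in between, at 1150 and 1340, then 718, 480 and 394, then 18.5 and 6.23 CPM. Heterozygotes kept 42.6% of wild-type Krt79, without overlap, and the fall of 1.23 (SE 0.28) did not pass (adjusted p = 0.0573). It passed with RLE scaling (adjusted p = 0.0464), with no filter on low counts (0.0144), with DESeq2 (0.00196), with the block (0.0478) and without heterozygous replicate 1 (0.0245). The knockout fall of Krt79 against heterozygotes was -5.39 (SE 0.38, adjusted p = 1.95e-08).

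Flt1 was at 39.7 and 23.9 CPM in wild-type, 147, 228 and 209 in heterozygous and 314 and 154 in knockout libraries. Heterozygotes were at 612% of the wild-type mean, overlapping the knockouts at 736%. The heterozygous change of 2.62 (SE 0.62) did not pass (adjusted p = 0.0921), and it passed with DESeq2 (0.00308), with the block (0.00821) and in a fit of all libraries of the table (0.00297). The knockout rise of 2.88 (SE 0.65) passed (adjusted p = 0.00761) and was lost without wild-type replicate 2 (2.54, adjusted p = 0.0925). Endothelial markers summed to 83.6 and 83.8 CPM in wild-type, 81.8 to 106 in heterozygous and 122 to 140 in knockout libraries, and their part in the Flt1 change was not tested. For the other 6 genes the heterozygous log2 fold changes lay between -0.29 (Krt19) and 0.69 (Ear2), none of which passed. Siglecf, for example, was at 447 and 309 CPM in wild-type, 606, 391 and 616 in heterozygous and 86.5 and 28 in knockout libraries. Heterozygotes overlapped the wild type in Siglecf and Krt19. In Ear1 (442, 368 and 481 against 299 and 253 CPM), Ear2 (1590, 1440 and 1240 against 850 and 915), Plet1 (1750, 1480 and 1840 against 1330 and 1130) and Slc7a2 (477, 595 and 584 against 443 and 446) every heterozygous library lay above both wild types, by 0.64, 0.69, 0.46 and 0.31 on the log2 scale, and none of these passed. From heterozygote to knockout Siglecf, Krt19, Ear1 and Ear2 fell by 3.22, 2.52, 4.75 and 2.72, all past the test.

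The knockout effect was larger at facility 2 and smaller in males. At facility 2, 7 of the 9 genes fell and none rose (all genes 22.7% and 24.9%, median -5.54), and in males 3 fell and 2 rose (all genes 3.76% and 7.12%, median -1.16). Car4 was at 670, 663 and 584 CPM in wild-type females of facility 2, and the 2 knockout libraries held 2 counts and 0 counts of it (0.854 and 0 CPM), which is at or under the floor of 3 counts. Krt79 was at 755, 821 and 853 CPM against 1.28 and 2.21, Ear1 at 839, 335 and 550 against 0.854 and 2.12, and Krt19 at 732, 847 and 823 against 1.28 and 7.6. Siglecf fell from 563, 636 and 452 to 2.99 and 16.9 CPM (-5.54, SE 0.6, adjusted p = 8.94e-06). Knockout replicate 1, with 2345778 counts in all, held 2 or 3 counts each of Krt79, Ear1 and Krt19, and replicate 2, with 12687928, held 23, 22 and 79. Plet1, whose facility 1 knockouts were at 1300 and 378 CPM beside 1330 and 1130 in wild type, fell from 1910, 1960 and 1920 to 144 and 337 CPM (-2.99, SE 0.43, adjusted p = 4.76e-05).

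In knockout males Siglecf (157 and 176 CPM), Krt19 (362 and 264), Ear2 (1200 and 970) and Plet1 (1960 and 2090) were at 43.8%, 44.7%, 111% and 111% of wild-type males, and none of these differences passed. Car4 (401 and 394 against 7.6 and 8.88 CPM), Krt79 (853 and 777 against 12.4 and 10.3) and Ear1 (228 and 255 against 45.4 and 21.4) fell, and Flt1 rose from 63.4 and 20.7 to 295 and 363 CPM. The Flt1 rise of 2.99 was lost without wild-type replicate 2 (2.38, adjusted p = 0.0901) or knockout replicate 2 (2.83, adjusted p = 0.0515), and a Slc7a2 rise of 0.6 (adjusted p = 0.0439) without any of wild-type replicate 1 (0.376) or knockout replicates 1 (0.153) and 2 (0.184), with no filter (0.067) and in the fit of all libraries (0.411). In the same libraries endothelial markers summed to 94.6 and 117 CPM in wild-type and 131 and 169 in knockout males, and epithelial markers to 42.4 and 45 against 136 and 226 CPM. Their part in the Flt1 rise was not tested.

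Tests of the difference between these effects carry the same pattern. The knockout effect was more negative at facility 2 than at facility 1 for 6 genes and less negative for none (all genes 4.17% and 3.44%). Krt19 differed by -4.33 (SE 0.82, adjusted p = 0.00918) and Ear1 by -4.18 (SE 0.63, adjusted p = 0.00169), with Plet1 at -2.44, Siglecf at -2.82, Ear2 at -2.33 and Krt79 at -2.04. The number of genes passing ran from 2 to 7 when single libraries were left out, and Plet1 in facility 1 knockouts was far apart between replicates 1 and 2. Without facility 1 knockout replicate 1 the differences were -1.32 for Plet1, -1.81 for Siglecf, -1.49 for Ear2 and -1.06 for Krt79, none past the threshold. Krt19 and Ear1 passed without each library in turn, whereas Krt79 lost the call without any of 8 libraries (all but facility 1 knockout replicate 2) and in the fit of all libraries (adjusted p = 0.294). Siglecf lost it also without either wild type of facility 1 or wild-type replicates 1 and 2 of facility 2. Ear2 lost it without wild-type replicates 1 (0.0863) and 2 (0.0952) of facility 1 and 1 (0.058) and 3 (0.054) of facility 2, and Plet1 without wild-type replicate 2 of facility 1 (0.0905). With no filter on low counts Siglecf (0.0783), Ear2 (0.0882) and Plet1 (0.0676) did not pass. Males against the mean of the females gave a less negative effect in 7 genes and a more negative one in none (all genes 6.16% and 4.43%), from 1.48 for Krt79 to 3.9 for Car4. Between 3 and 7 of these passed when single libraries were left out, and Siglecf (2.93), Car4, Krt79 and Plet1 (1.92) each lost the call without either wild-type male library, with adjusted p of 0.0587 (Siglecf) to 0.137 (Krt79). Car4, Krt79 and Plet1 also lost it without either knockout male, Car4 without facility 2 knockout replicate 2 (0.115), Krt79 without 5 of the female libraries and in the fit of all libraries (0.323), and Plet1 with no filter (0.0801). Monocyte markers summed to 2.18 to 3.6 CPM in wild-type and 23.2 to 161 CPM in knockout females of facility 2, and mitochondrial transcripts to 0.04% to 0.06% and 0.89% to 1.22% of their counts. Epithelial markers summed to 68.3 to 280 CPM in wild-type and 21.8 to 42.9 CPM in knockout females of facility 2, where Krt19 fell. The part of these in the facility difference was not tested.

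**Figure D2:**
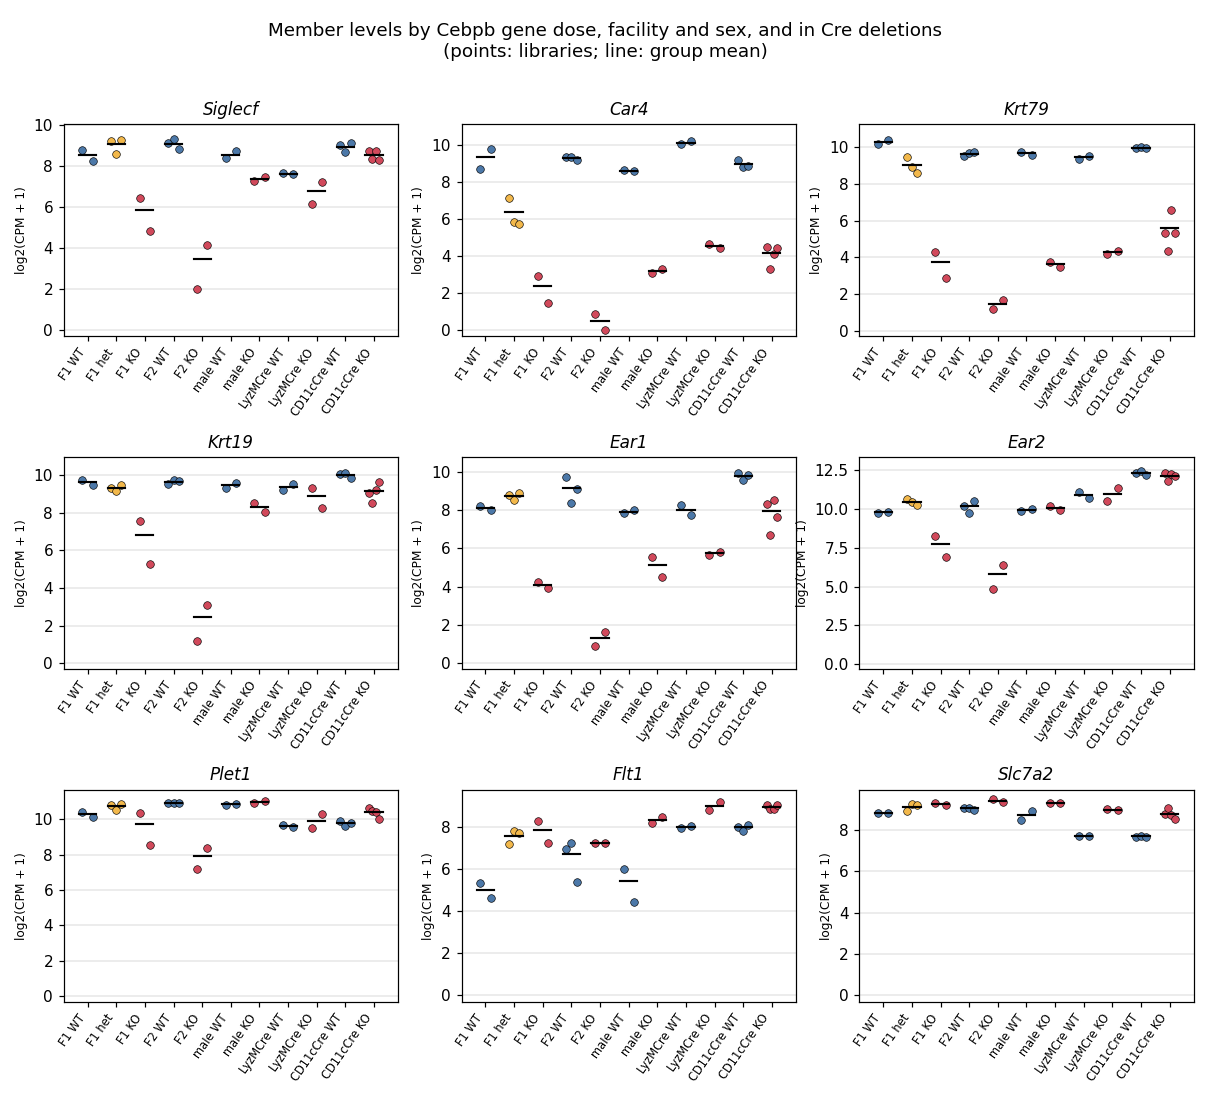
Levels of the 9 genes in each library, as log2(CPM + 1), by Cebpb genotype in facility 1 females (F1), facility 2 females (F2) and males, and in the LyzMCre and CD11cCre deletions with their controls (points, libraries; line, group mean). Car4 and Krt79 descend in steps from wild type over heterozygote to knockout in facility 1, while heterozygous Flt1, at 147 to 228 CPM, lies above the wild type at 23.9 and 39.7 CPM.

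When Cebpb was deleted by Cre in myeloid or CD11c-expressing cells, Car4, Krt79 and Ear1 fell with both drivers, and Slc7a2 rose with both. The LyzMCre controls carried no Cre, so Cebpb deletion and the Cre allele cannot be told apart there. The CD11cCre controls carried Cre. With LyzMCre 3 genes fell and 1 rose (all 8654 genes tested 1.72% and 2.96%, median -0.51), and with CD11cCre 4 fell and 3 rose (all 9992 genes 6.48% and 10.3%, median -0.41). Car4 was at 1080 and 1190 CPM in LyzMCre controls and 24.8 and 20.8 after deletion, and at 590, 453 and 477 CPM in CD11cCre controls and 22.2, 9.18, 16.6 and 20.9 after deletion. No library overlapped, and the falls were -5.67 (SE 0.34, adjusted p = 0.000131) and -4.9 (SE 0.23, adjusted p = 9.33e-08). Krt79 went from 659 and 746 to 17.3 and 19.4 CPM with LyzMCre (-5.23, adjusted p = 0.000131) and from 1020, 1050 and 994 to 38.5, 19.4, 93.8 and 39.6 CPM with CD11cCre (-4.41, SE 0.43, adjusted p = 0.000159). The CD11cCre call of Krt79 held in 12 of 13 main and alternative fits, with adjusted p up to 0.0593.

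Ear1 retained more, 20.5% with LyzMCre (305 and 211 to 49.6 and 56 CPM) and 27.9% with CD11cCre (969, 772 and 913 to 321, 103, 362 and 200 CPM). Its CD11cCre fall of 1.84 (SE 0.35, adjusted p = 0.00497) was lost without knockout replicate 4 (-1.76, adjusted p = 0.0821). Ear2 overlapped between groups in both, 2250 and 1680 against 1470 and 2630 CPM with LyzMCre, and 5060, 5720 and 4790 against 5100, 3650, 4870 and 4540 CPM with CD11cCre. With Ear1 and Ear2 summed the changes were -0.08 and -0.34, and neither passed (adjusted p = 0.954 and 0.104), as was the case in males (-0.13, adjusted p = 0.904). Siglecf kept 75.2% with CD11cCre (530, 412 and 557 against 436, 323, 427 and 317 CPM), a change of -0.41 (SE 0.15, adjusted p = 0.0942). Krt19 fell to 55.3% in that line, from 1080, 1100 and 924 to 537, 370, 590 and 791 CPM (-0.86, SE 0.2, adjusted p = 0.00963), and the call was lost without control replicate 1 (-0.83, adjusted p = 0.0524).

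With LyzMCre Siglecf (200 and 199 against 69.4 and 149 CPM), Krt19 (600 and 724 against 630 and 304) and Plet1 (826 and 743 against 711 and 1230) did not pass, and the 2 deleted libraries were far apart in each. Flt1 was at 252 and 266 against 456 and 583 CPM there (1.01, SE 0.27, adjusted p = 0.0777).

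Plet1, Flt1 and Slc7a2 were higher after CD11cCre deletion. Plet1 was at 949, 786 and 895 CPM in controls and 1590, 1410, 1370 and 1050 in deleted cells, a rise of 0.63 (SE 0.14, adjusted p = 0.00842) that was lost without control replicate 2 (0.55, adjusted p = 0.0538). Flt1 rose from 263, 230 and 273 to 541, 477, 469 and 537 CPM (0.99, SE 0.12, adjusted p = 8.94e-05). In a fit of all libraries of the table the rises of Flt1 (0.98, adjusted p = 0.112) and Plet1 (0.62, adjusted p = 0.492) and the fall of Krt19 (-0.86, adjusted p = 0.252) did not pass. Slc7a2 rose from 203, 207 and 203 to 430, 526, 422 and 360 CPM (1.09, SE 0.13, adjusted p = 0.000125) and with LyzMCre from 205 and 208 to 508 and 492 CPM (1.27, SE 0.26, adjusted p = 0.0238). Groups did not overlap in any of these, and the LyzMCre rise was lost without either control library (1.26 and 1.29, adjusted p = 0.686 and 0.584). Endothelial markers summed to 94.1 to 115 CPM in CD11cCre controls and 131 to 227 CPM in deleted cells, and their part in the Flt1 rise was not tested.

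Knockout macrophages of the chromatin-matched table, which were not split by CD11b, gave falls of the lectin, keratins, ribonucleases and Plet1. In all, 6 genes fell and 1 rose (all 10262 genes tested 12.6% and 14.6%, median -4.31). Siglecf was at 378, 365 and 399 CPM in wild-type and 9.61, 25.6 and 22.6 in knockout libraries (-4.31, SE 0.33, adjusted p = 2.15e-05), Ear2 at 1850, 1850 and 2130 against 114, 206 and 65 CPM, and Plet1 at 954, 1010 and 1100 against 183, 273 and 104 CPM. Flt1 rose from 19.1, 33.5 and 21.6 to 51, 54.3 and 53.8 CPM (1.09, SE 0.22, adjusted p = 0.0053). Krt19 fell from 1190, 867 and 693 to 35.5, 84.8 and 12.3 CPM, beside epithelial markers that summed to 31.9 to 75.4 CPM in wild-type and 9.26 to 20.9 CPM in knockout libraries, and Ear1 from 579, 589 and 728 to 3.13, 6.1 and 22.2 CPM. A single library moved the lowest genes: Car4 was at 0.418, 0 and 54 CPM in the knockouts, and its change of -5.22 (SE 1.69, adjusted p = 0.0755) became -11.34 (adjusted p = 5.09e-05) without knockout replicate 3. Krt79 was at 0.209, 0 and 16.4 CPM there against 907 to 1070 in wild type (-7.4, SE 1.4, adjusted p = 0.013), a call lost without wild-type replicate 1 (adjusted p = 0.0593) or 2 (adjusted p = 0.051). Endothelial markers summed to 78.9 to 138 CPM in wild-type and 218 to 376 in knockout libraries, and neither the part of these in the Flt1 rise nor that of the epithelial markers in the Krt19 fall was tested.

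Counted over the 8 adult comparisons of Cebpb-null with Cebpb-sufficient lavage cells, Krt79 and Ear1 fell in 8, Car4 in 7, Krt19 in 6, Siglecf and Ear2 in 5 and Plet1 in 3. Plet1 rose in 1, Flt1 in 6 and Slc7a2 in 3. Some of these comparisons share wild-type libraries, so they are not 8 independent tests. The division of reads between Ear1 and Ear2 is uncertain, and their summed counts did not pass in males, with LyzMCre or with CD11cCre.

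**Figure D3:**
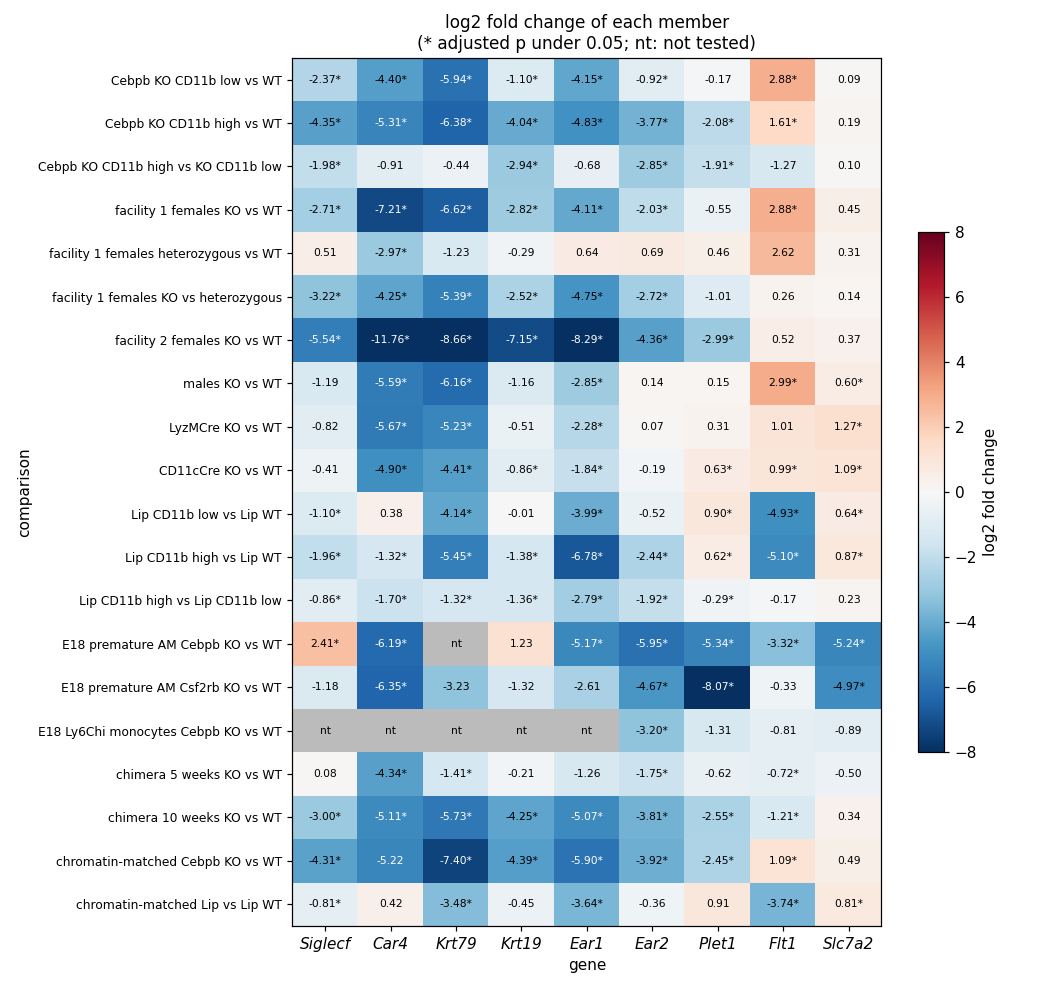
Log2 fold change of each gene (columns) in each of the 20 comparisons (rows), blue lower and red higher in the first-named group. An asterisk marks an adjusted p under 0.05 and nt a gene that was not tested. Krt79 and Ear1 are blue in every adult mutant row apart from Ear1 in heterozygotes, and Flt1 is red where adult lavage knockouts are set against wild type, and blue where Lip cells are set against Lip wild type and in the E18 and chimera rows.

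Lip macrophages split the genes differently from the knockout. Krt79, Ear1 and Siglecf fell in both Lip fractions, Car4 was not lower in CD11b low cells, Plet1 rose, and Flt1 fell where the knockout raised it. In Lip CD11b low cells 4 genes fell and 2 rose (all 8918 genes tested 11.8% and 14%, median -0.52). In CD11b high cells 7 fell and 2 rose (all genes 18.5% and 20.8%, median -1.96). Both share the Lip wild type, for which the labels name no CD11b fraction, so genotype and fraction cannot be told apart.

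Siglecf stood at 244, 258 and 312 CPM in Lip wild type, 127, 121, 141 and 121 in CD11b low and 74.5, 51.9, 89.4 and 61.9 in CD11b high cells, 47% and 25.6% of the control mean without overlap. Its fold changes were -1.1 (SE 0.12, adjusted p = 3.69e-10) and -1.96 (SE 0.13, adjusted p = 3.5e-17). Car4 was at 710, 600 and 530 CPM in wild type and 734, 890, 818 and 741 in Lip CD11b low cells, all above the controls (0.38, SE 0.18, adjusted p = 0.152), but at 191, 300, 311 and 178 in CD11b high cells (-1.32, SE 0.19, adjusted p = 9.33e-05). Krt79 fell from 721, 591 and 661 to 43.6, 51.2, 32 and 27.5 CPM in CD11b low and 10.3, 14.4, 26.2 and 8.04 CPM in CD11b high cells (-4.14 and -5.45, adjusted p = 1.12e-09 and 1.51e-10).

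Krt19 overlapped the wild type in Lip CD11b low cells (721, 799, 1090 and 769 against 948, 847 and 773 CPM, change -0.01, SE 0.33) and was at 184, 287, 569 and 269 CPM in CD11b high cells (-1.38, SE 0.34, adjusted p = 0.0112). Over the main and alternative fits, this Krt19 call in CD11b high cells held in 12 of 13, with adjusted p up to 0.111. Ear1 fell from 531, 590 and 570 CPM to 33.7, 45, 38.7 and 27.1 and to 5.14, 3.84, 8.48 and 2.41 CPM, 6.42% and 0.881% of the control (-3.99, SE 0.13, adjusted p = 2.72e-28 and -6.78, SE 0.19, adjusted p = 5.61e-32). Ear2 kept 69.7% in CD11b low (2200, 2670, 2920 and 2400 against 3330, 4530 and 3100 CPM, adjusted p = 0.126) and 18.4% in CD11b high cells (588, 639, 956 and 508 CPM, -2.44, SE 0.23, adjusted p = 2.25e-05). Summed counts of Ear1 and Ear2 changed by -0.71 in Lip CD11b low cells (adjusted p = 0.0393).

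Plet1 rose from 858, 888 and 903 CPM to 1590, 1770, 1650 and 1600 in CD11b low and 1240, 1440, 1470 and 1270 in CD11b high cells (0.9 and 0.62, adjusted p = 9.9e-11 and 5.2e-07). Flt1 fell from 281, 341 and 335 CPM to 10.7, 15.1, 9.66 and 8.04 and to 6.85, 3.84, 7.71 and 17.7 CPM, 3.41% and 2.83% of the control (-4.93, SE 0.18, adjusted p = 5.52e-21 and -5.1, SE 0.2, adjusted p = 5.58e-21). Slc7a2 rose from 213, 240 and 231 CPM to 325, 343, 373 and 386 and to 395, 441, 436 and 402 CPM (0.64 and 0.87, adjusted p = 3.01e-06 and 1.96e-09). No mutant library of these 3 genes overlapped its controls. Between the Lip fractions, 7 genes were lower in CD11b high cells and none higher (all genes 9.48% and 10.1%), from -0.29 for Plet1 to -2.79 for Ear1, and Flt1 and Slc7a2 did not pass. These tests did not pair the libraries. With the replicate number as a block, Slc7a2 was higher in CD11b high cells (adjusted p = 0.0196). The Plet1 call was lost without CD11b high replicate 1 or 4 (-0.25 and -0.26, adjusted p = 0.0514 in both), and the Krt19 call of -1.36 without CD11b high replicate 2 or 4 (adjusted p = 0.0516 and 0.0526). In a fit of all libraries of the table, 4 calls against the Lip wild type were lost, Siglecf (-1.07, adjusted p = 0.111), Plet1 (0.93, adjusted p = 0.153) and Slc7a2 (0.67, adjusted p = 0.114) in CD11b low and Plet1 (0.63, adjusted p = 0.293) in CD11b high cells. Between the fractions that fit lost Siglecf (-0.88, adjusted p = 0.303), Krt79 (-1.37, adjusted p = 0.182) and Plet1 (-0.30, adjusted p = 0.848). Endothelial markers summed to 79.4 to 95.2 CPM in Lip wild-type and 94.1 to 188 CPM in Lip libraries, in which Flt1 was lower. Epithelial markers summed to 40.3 to 43 CPM in Lip wild-type, 102 to 190 in CD11b low and 77.1 to 192 in CD11b high libraries. Their part in the Krt19 levels of Lip cells was not tested.

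The test of Lip against knockout effects put Flt1 first. In CD11b low cells the Lip effect on Flt1 was more negative by -7.77 (SE 0.57, adjusted p = 5.61e-09) and in CD11b high cells by -6.69 (SE 0.59, adjusted p = 1.5e-07). In CD11b low cells the effect was more negative in 1 and less negative in 2 of the 9 genes (all 9501 genes tested 1.52% and 2.48%), Car4 at 4.83 (SE 0.75, adjusted p = 0.000491) and Siglecf at 1.27 (SE 0.3, adjusted p = 0.00796). In CD11b high cells it was 1 and 5 (all genes 1.92% and 4.05%), with Car4 at 4.03, Plet1 at 2.69, Krt19 at 2.64, Siglecf at 2.39 and Ear2 at 1.31. For Krt79 and Ear1 neither difference passed, and a p that misses the threshold does not show that the effects are alike. Krt79 differed by 1.89 (SE 0.72, adjusted p = 0.182) in CD11b low and 0.95 (SE 0.79, adjusted p = 0.632) in CD11b high cells, and passed in CD11b low cells without knockout replicate 2 (2.76, adjusted p = 0.0111). Ear1 differed by 0.19 (SE 0.5, adjusted p = 0.911) and -1.95 (SE 0.66, adjusted p = 0.0904), and passed in CD11b high cells without knockout replicate 2 (adjusted p = 0.0251) or 4 (0.0436). In a fit of all libraries of the table, Siglecf lost the call in CD11b low (1.28, adjusted p = 0.365) and Ear2 in CD11b high cells (1.32, adjusted p = 0.232). The 2 controls differed in Flt1 level, 6.7 to 60.2 CPM in the knockout experiment and 281 to 341 CPM in the Lip experiment.

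Lip macrophages of the chromatin-matched table, not split by CD11b, gave 4 falls and 1 rise (all 9491 genes tested 1.84% and 3.1%, median -0.45). Krt79 fell from 513, 704, 524 and 646 to 46.8, 42.7, 81.7 and 42.9 CPM (-3.48, SE 0.27, adjusted p = 3.79e-07), Ear1 from 378, 356, 552 and 340 to 24.6, 21.7, 49.1 and 35.3 CPM (-3.64, SE 0.29, adjusted p = 5.48e-07), and Flt1 from 431, 360, 366 and 365 to 14.4, 25.1, 28.8 and 45.5 CPM (-3.74, SE 0.3, adjusted p = 5.48e-07). These were separate libraries with the same 3 large falls. Car4 was at 428, 458, 606 and 444 CPM in wild-type and 542, 643, 512 and 903 in Lip cells (0.42, SE 0.23, adjusted p = 0.473). The Siglecf fall of 0.81 (254, 270, 333 and 248 against 163, 161, 200 and 107 CPM, adjusted p = 0.048) was lost when any library but Lip replicate 3 was left out, with adjusted p up to 0.132 without Lip replicate 1. The Slc7a2 rise of 0.81 (adjusted p = 0.0334) was lost without any of the 4 wild-type libraries or Lip replicates 1 and 2, with adjusted p up to 0.156 without Lip replicate 1. Summed with Ear2, Ear1 changed by -0.69 (adjusted p = 0.0986).

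At E18, before the air spaces are filled with air, 6 of the 8 testable genes fell in Cebpb knockout premature macrophages and 1 rose (all 10047 genes tested 9.55% and 12%, median -5.2). Slc7a2, Plet1, Ear2 and Flt1 fell here, although adult CD11b low knockout cells had them at 52.9% (Ear2) to 781% (Flt1) of wild type. Adult CD11b high knockout cells had Ear2 at 7.28% and Plet1 at 23.8% of wild type, with Slc7a2 at 114% and Flt1 at 329%. Slc7a2 was at 98.7, 109 and 112 CPM in wild-type and 1.06, 2.47, 3.4 and 4.45 in knockout libraries (-5.24, SE 0.34, adjusted p = 2.21e-07). Plet1 fell from 300, 605 and 498 to 10.2, 27.8, 1.13 and 7.74 CPM (-5.34, SE 0.69, adjusted p = 0.000725), and Ear2 from 997, 755 and 843 to 32.9, 8.1, 7.18 and 5.42 CPM (-5.95, SE 0.6, adjusted p = 9.88e-05). None of these groups overlapped. Car4 fell from 77.2, 84 and 81.8 to 1.41, 1.41, 0 and 1.16 CPM (-6.19, SE 0.38, adjusted p = 1.54e-07) and Flt1 from 19.4, 17 and 20.5 to 2.46, 1.41, 0 and 2.9 CPM (-3.32, SE 0.53, adjusted p = 0.000403).

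Siglecf was low in fetal cells and was the gene that rose: 1.48, 2.99 and 2.62 CPM in wild-type and 10.4, 19, 4.91 and 15.7 in knockout libraries (2.41, SE 0.53, adjusted p = 0.00428). Ear1 was at 8.02, 7.47 and 14.6 CPM in wild type and at 0 to 0.705 CPM in knockouts, under the floor of 3 counts in each library. Krt19 was at 0.844, 5.38 and 4.3 against 1.41, 12, 14.4 and 5.61 CPM (adjusted p = 0.271), and Krt79 was too low to test. Markers of other cells moved in these sorts: dendritic cell markers summed to 18.1 to 27.2 CPM in wild-type and 389 to 870 CPM in knockout libraries, epithelial ones to 35.1 to 39.2 and 120 to 246 CPM, and eosinophil ones to 0 to 1.69 and 0.352 to 3.17 CPM. The alveolar macrophage markers outside the described genes went from 974 to 1170 CPM in wild-type to 161 to 192 CPM in knockout libraries. Their part in these results was not tested.

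Without Csf2rb, 4 genes fell and none rose in E18 macrophages (all 9422 genes tested 11.4% and 11%, median -3.23). Plet1 fell furthest, from 717, 703, 713 and 718 to 2.24, 6.34 and 0.374 CPM (-8.07, SE 0.55, adjusted p = 1.5e-05). Ear2 fell from 438, 470, 413 and 559 to 35, 4.44 and 14.6 CPM (-4.67, SE 0.54, adjusted p = 0.000353), and Slc7a2 from 96.7, 141, 137 and 94.5 to 1.35, 11.4 and 0 CPM (-4.97, SE 0.9, adjusted p = 0.0039). Car4 fell from 140, 200, 119 and 54.3 CPM to 4.49, 0 and 0 (adjusted p = 0.00135). Flt1 was at 203, 200, 164 and 179 against 181, 72.9 and 191 CPM, so that 1 knockout library lay below the controls and the others among them (-0.33, SE 0.31, adjusted p = 0.514).

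Siglecf was at 18.6, 9.11, 13.4 and 8.43 CPM with Csf2rb and at 16.1, 0 and 0 without it, so a single library decided its change of -1.18 (adjusted p = 0.599). Without Csf2rb knockout replicate 1 it was -8.72 (adjusted p = 0.00649), and Krt79 (-8.46) and Ear1 (-4.78) passed as well. These 2 genes passed in further alternatives too, Krt79 in 3 of 13 fits and Ear1 in 4 of 14, its sum with Ear2 included. Eosinophil markers summed to 10.1 to 28.5 CPM and monocyte markers to 2770 to 3450 CPM in these knockouts, the latter against 464 to 591 CPM in controls. The alveolar macrophage markers outside the described genes summed to 580 to 1300 CPM in controls and 124 to 246 CPM in these knockouts. The part of these markers in the results was not tested. Set against the Cebpb effect of the same age, the difference was called for 1 of the genes, Flt1, in the higher direction (2.91, SE 0.58, adjusted p = 0.0037), with none lower (all 10182 genes tested 4.18% higher and 7.18% lower). The 2 wild-type groups of E18 differed in Flt1, 17 to 20.5 and 164 to 203 CPM, and come from separate strains.

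In Ly6Chi fetal monocytes, the cells from which premature macrophages arise, 4 of the genes were high enough to test and 1 fell with none higher (all 9214 genes tested 1.64% and 1.99%). Ear2 went from 105, 118 and 199 to 12.4, 13.6, 23.6 and 10.6 CPM (-3.2, SE 0.29, adjusted p = 8.38e-06). Plet1 was at 28.2, 16.8 and 13.3 against 2.12, 8.82, 14.4 and 6.08 CPM (adjusted p = 0.182) and Flt1 at 40.5, 33.1 and 36.2 against 32.4, 19.7, 15.1 and 14.7 CPM (adjusted p = 0.126), and Slc7a2 changed by -0.89 (SE 0.59). Flt1 passed without knockout replicate 1 (-1.16, adjusted p = 0.0288) and Plet1 without knockout replicate 3 (-1.89, adjusted p = 0.029). Siglecf (0 to 2.01 CPM), Car4 (0.719 to 3), Krt79 (0 to 0.402), Krt19 (0.804 to 1.5) and Ear1 (0 to 0.804) were near the floor in wild-type monocytes. Krt19 in the knockouts, 0.302, 53.6, 46.1 and 0.506 CPM, moved with epithelial markers, which summed to 25.1, 1200, 604 and 80.5 CPM in the same libraries.

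**Figure D4:**
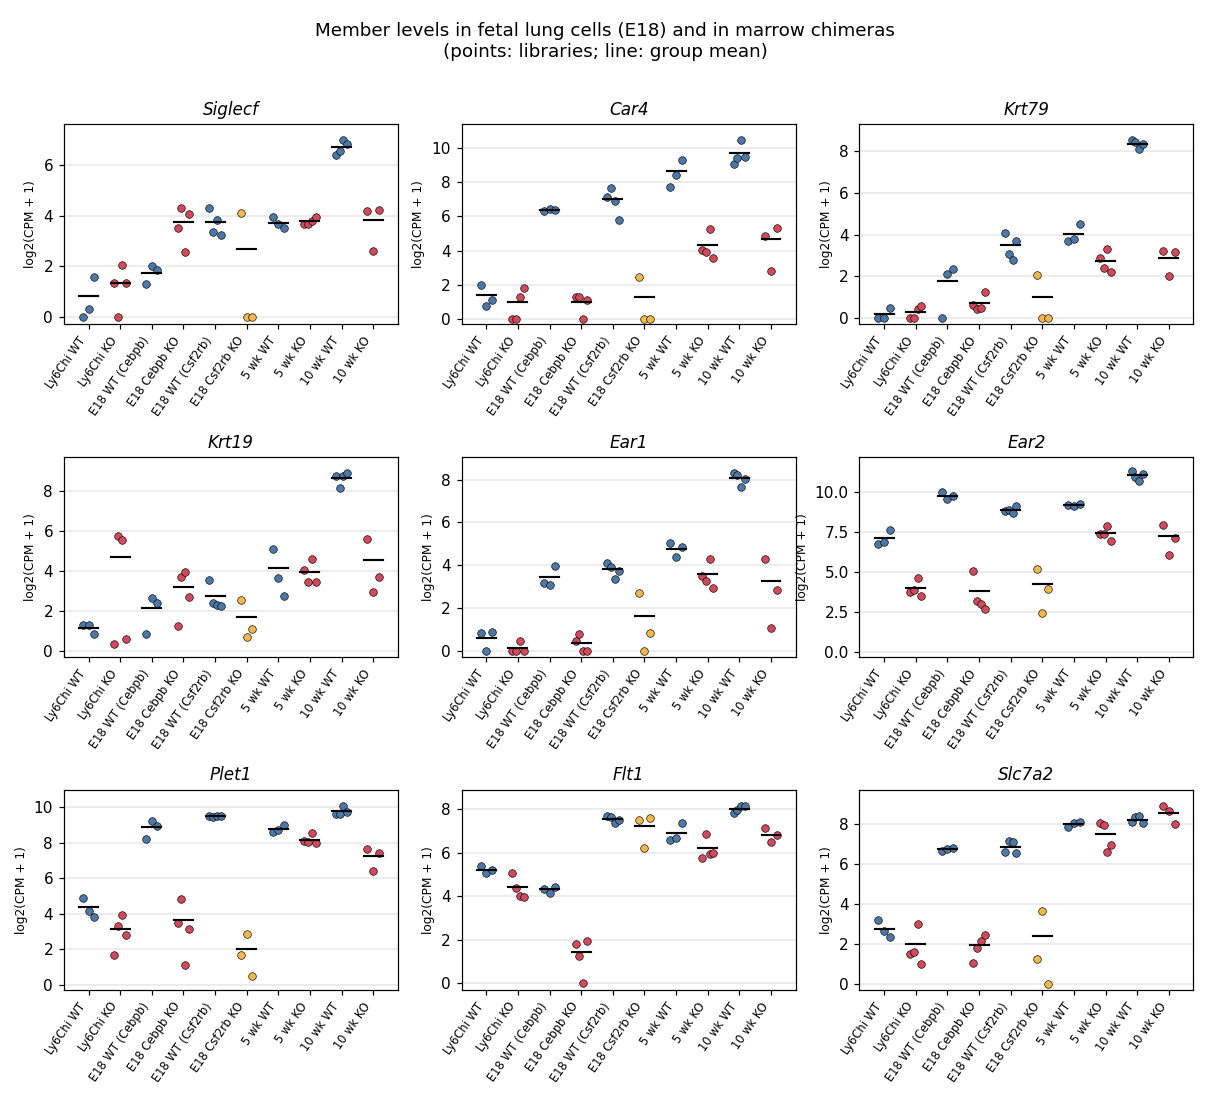
Levels of the 9 genes in each library, as log2(CPM + 1), in E18 Ly6Chi monocytes, E18 premature macrophages of the Cebpb and Csf2rb experiments, and donor macrophages of marrow chimeras at 5 and 10 weeks (points, libraries; line, group mean). Plet1, Ear2 and Slc7a2 are low in both E18 knockouts, and Siglecf, Krt79, Krt19 and Ear1 reach their highest plotted levels in 10-week wild-type donor cells.

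In marrow-derived macrophages the knockout effect was more negative at 10 than at 5 weeks for Siglecf, both keratins, both ribonucleases and Plet1, and the test of the difference was not passed by Car4, Flt1 or Slc7a2. At 5 weeks 4 genes fell and none rose (all 11136 genes tested 10.5% and 12.1%, median -0.72), and at 10 weeks 8 fell and none rose (all genes 21.1% and 24.5%, median -3.81). The 6 genes with a more negative effect at 10 weeks, and none with a less negative one, stand beside 5.97% and 7.57% of all genes. In wild-type donor cells the 10-week mean was 24.1 times the 5-week mean for Krt19, 21.2 for Krt79, 10.2 for Ear1, 8.6 for Siglecf and 3.6 for Ear2. It was 2.17 for Flt1, 2.09 for Car4, 2 for Plet1 and 1.16 for Slc7a2. The same ratios in knockout cells lay between 0.528 (Plet1) and 2.07 (Slc7a2). These ratios between ages are given as a description.

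Krt79 was at 11.8, 12.9 and 21.7 CPM in wild-type and 6.45, 4.24, 8.78 and 3.62 in knockout cells at 5 weeks, and at 367, 349, 272 and 326 against 8.36, 3 and 7.98 at 10 weeks. The groups were separate at both ages, and the effect went from -1.41 (SE 0.32, adjusted p = 0.00648) to -5.73 (SE 0.39, adjusted p = 1.2e-07), a difference of -4.32 (SE 0.49, adjusted p = 0.000148). Siglecf was at 14.3, 11.6 and 10.3 CPM in wild-type and 11.8, 11.9, 12.8 and 14.5 in knockout cells at 5 weeks, overlapping, and at 83.3, 93, 126 and 114 against 17.4, 5 and 17.6 at 10 weeks (-3, SE 0.32, adjusted p = 3.19e-06, difference -3.08, adjusted p = 0.000448). Krt19 went from overlapping levels at 5 weeks to 438, 287, 437 and 488 against 48.1, 6.82 and 11.9 CPM (-4.25, SE 0.74, adjusted p = 0.000623). Its difference between ages, -4.04 (adjusted p = 0.0176), was lost without 5-week wild-type replicate 2 (-3.82, adjusted p = 0.0536). Ear1 was at 31.3, 20 and 27.6 against 10.4, 8.47, 18.3 and 6.59 CPM at 5 weeks (adjusted p = 0.108) and at 314, 292, 200 and 262 against 18.2, 1.09 and 6.1 at 10 weeks (-5.07, SE 0.65, adjusted p = 4.51e-05).

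Car4 and Ear2 were lower without Cebpb already at 5 weeks. Car4 was at 209, 339 and 629 against 15.4, 13.9, 37 and 11.1 CPM (-4.34, SE 0.64, adjusted p = 0.000629) and at 10 weeks at 525, 675, 1380 and 706 against 27.6, 6 and 38.9 CPM (-5.11, SE 0.73, adjusted p = 0.000144), and the difference between ages of -0.77 did not pass (adjusted p = 0.594). Ear2 was at 587, 543 and 603 against 167, 161, 237 and 121 CPM (-1.75, SE 0.32, adjusted p = 0.00158) and then at 2470, 1980, 1660 and 2200 against 244, 65 and 137 CPM (-3.81, SE 0.37, adjusted p = 2.5e-06). Plet1 kept 65.2% at 5 weeks (394, 422 and 504 against 271, 260, 368 and 248 CPM, adjusted p = 0.0648) and 17.1% at 10 weeks (776, 790, 1090 and 862 against 200, 82.3 and 169 CPM, -2.55, SE 0.26, adjusted p = 1.3e-06).

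Flt1, higher in most adult lavage knockouts, was lower in knockout donor cells: 94.3, 101 and 165 against 53, 114, 61.4 and 63.6 CPM at 5 weeks and 229, 248, 284 and 284 against 138, 90.2 and 112 at 10 weeks (-1.21, SE 0.26, adjusted p = 0.00126). The 5-week fall of 0.72 (adjusted p = 0.0462) was lost with RLE scaling (adjusted p = 0.0528), with no filter on low counts (0.0533), and without wild-type replicate 2 (0.0586) or 3 (-0.43, 0.285) or knockout replicate 1 (0.115), 3 (0.111) or 4 (0.115). Both donors' marrow went into each recipient, and the labels do not say which libraries share one. With the replicate number as a block, Flt1 at 5 weeks did not pass (-0.70, adjusted p = 0.169), whereas Ear1 (-1.14, adjusted p = 0.0011) and Plet1 (-0.57, adjusted p = 0.00227) did. Slc7a2 did not pass at either age, with 234, 267 and 280 against 266, 249, 97.6 and 125 CPM and then 279, 324, 336 and 263 against 483, 401 and 257. Dendritic cell markers summed to 521 to 677 CPM in wild-type and 2280 to 3950 in knockout cells at 5 weeks, and to 43.3 to 134 and 361 to 1480 CPM at 10 weeks. The alveolar macrophage markers outside the described genes went from 3240 to 7910 and 1230 to 1430 CPM at 5 weeks to 11900 to 23900 and 755 to 1760 CPM at 10 weeks. Their part in these results was not tested.

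Relatives of the described genes, from lists of their families, were read from the same tests. Among all genes, 6.83% fell and 8.29% rose in CD11b low knockout cells, and 6.48% and 10.3% after CD11cCre deletion. In CD11b low knockout cells Siglece (-2.34, SE 0.44, adjusted p = 0.000889), Siglec1 (-0.73) and Cd22 (-0.7) fell among 4 tested genes of the Siglec family, and after CD11cCre deletion Siglece (-1.28) alone. Of the carbonic anhydrases, none of 2 tested changed in CD11b low knockouts, and CD11cCre deletion lowered Car5b (-1.85) and raised Car13 (1.95). No other keratin was high enough to test in the CD11b-split experiment, while Krt8, an epithelial keratin, rose in E18 Cebpb knockouts (4.61, SE 1.24, adjusted p = 0.0151). Epithelial markers summed to 35.1 to 39.2 CPM in the E18 wild-type and 120 to 246 CPM in these knockout libraries, and their part was not tested. Ear6, another ribonuclease of the cluster, fell in CD11b low knockout (-5.75, SE 0.8, adjusted p = 3.46e-05), CD11b high knockout (-4.67) and CD11cCre-deleted cells (-2.65) but rose in Lip CD11b low (2.93, SE 0.26, adjusted p = 1.1e-07) and Lip CD11b high cells (1.15). Ear6 reads can also be shared with its copies.

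Around Flt1, the ligand gene Vegfb rose in CD11b low knockouts (0.88), where 8.29% of all genes rose. Nrp1, which encodes a co-receptor, fell in Lip CD11b low cells (-0.56), where 11.8% of all genes fell. These are single genes, each given for 1 comparison. Around Slc7a2, Ass1, which makes the precursor from which arginine is recycled, rose in CD11b low (1.81) and CD11b high knockouts (2.78), after CD11cCre deletion (3.48) and in Lip CD11b low cells (4.53). At E18 Ass1 changed by -0.84 (SE 0.62, adjusted p = 0.37) in Cebpb and by 1.63 (SE 0.86, adjusted p = 0.216) in Csf2rb knockouts. Of 9 tested arginine genes, 4 fell and 1 rose in E18 Cebpb knockouts (all genes 9.55% and 12%), among them Arg1, the enzyme that splits arginine (-2.82). In E18 Csf2rb knockouts 3 of 9 fell and none rose (all genes 11.4% and 11%), with Arg1 at -10.1.

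Among 22 further identity genes of alveolar macrophages, 10 fell and 2 rose in CD11b low knockouts (all genes 6.83% and 8.29%) and 17 fell and 2 rose in CD11b high knockouts (all genes 11.8% and 12.2%), with medians of -0.62 and -2.28. Marco, a scavenger receptor (-5.44, SE 0.88, adjusted p = 0.000889), and Il18, a cytokine (-2.49, SE 0.21, adjusted p = 1.08e-07), fell in CD11b low cells. Fabp4, a fatty acid carrier, changed by -0.56 there (SE 0.31, adjusted p = 0.243) and fell in CD11b high cells (-1.8) and in E18 Cebpb knockouts (-7.29), yet rose after CD11cCre deletion (1.42). With CD11cCre 8 fell and 5 rose (all genes 6.48% and 10.3%), and with LyzMCre 4 fell and none rose (all genes 1.72% and 2.96%). In chimeras 15 fell and 2 rose at 5 weeks (all genes 10.5% and 12.1%) and 14 and 2 at 10 weeks (all genes 21.1% and 24.5%).

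Over the 21 groups of the largest table, the log2 group means of the genes followed one another unequally. The groups share experiments and depth, and the correlations are a description. Siglecf went with Krt19 (Pearson r = 0.95), Krt79 with Ear1 (0.94) and Plet1 with Slc7a2 (0.88), while Flt1 lay between -0.11 (with Car4) and 0.38 (with Slc7a2). The genes most like Siglecf among 8395 were P2rx5, Slc9a2 and Fabp1 (0.96 each), and those most like Car4 were Plscr1 (0.95), Wfdc21 (0.94) and Wwtr1 (0.93). Krt79 was nearest to Tc2n (0.96), Patj and Adamts2 (0.95), Krt19 to Fabp1 (0.97), Abca2 and Rac3 (0.96), and Ear1 to Lepr (0.96), Cidec and Slc9a2 (0.95). Ear2 was nearest to Trim29 (0.95), Serpinb1a and Dmxl2 (0.94), Plet1 to Cyb561 (0.98), Mfsd7c and B3gnt7 (0.95), and Slc7a2 to Dpep2 and Adgrl2 (0.95) and Rusc2 (0.94). Flt1 had no such near neighbour, with Nr1h3 at 0.81, Lyz1 at 0.77 and Cxcr2 at 0.75.

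C/EBPβ binding and open chromatin were read from peak lists, 2 of C/EBPβ ChIP in wild-type C57BL/6 lavage macrophages and 5 of ATAC sequencing. The ATAC cells were macrophages of MxCre (n = 2) and MxCre Cebpb flox/flox (n = 3) mice cultured for 7 days with CSF2 (20 ng/ml) and IFNa (1000 units/ml), so they are other cells than those of the RNA tables. Flt1 had the strongest ChIP region by the authors' values (chr5:147726776-147727698, −log10 q 51.5, fold 25.77). Its summit lay 1207 bases upstream of the start of the RefSeq promoter entry (147726011). That start lies inside the gene span given above, which ends at 147726438, and so does the Flt1 promoter searched for the motif. Krt19 had one outside the gene (chr11:100149203-100150494, −log10 q 25.5), Slc7a2 one over its 5′ end (chr8:40861426-40862473, 24.5), and Siglecf (chr7:43352962-43353557, 17.3), Car4 (chr11:84959959-84960452, 15.9) and Krt79 (chr15:101936225-101937088, 21) one each inside the gene. With peaks restricted to a −log10 q of at least 10 in both lists, 7 of 9 genes kept a region, Car4 and Plet1 not.

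An ATAC region found in all 5 lists lay within 10 kb of 8 genes, Car4 being the exception, against 73.3% of all genes and 99.1% of those tested in the CD11b-split experiment. The ChIP regions of Siglecf and Krt19 each overlapped an ATAC region of all 5 cultures (chr7:43353114-43353554 and chr11:100149538-100150045), as did the downstream region of Ear2 (chr14:44103540-44104660). The matching region of Ear1 (chr14:43817745-43818120) was in both wild-type lists and in none of the 3 knockout lists, with a −log10 q of 14.3, and so were a region inside Plet1 (chr9:50496644-50496948) and one inside Slc7a2 (chr8:40887784-40888122). The reverse, all 3 knockout lists and neither wild-type list, held for a region near Krt79 (chr15:101921902-101922232) and for 2 inside Slc7a2 (chr8:40912828-40913139 and chr8:40921288-40921691). At Car4 both regions near the start, and at Krt79 the region under the ChIP peak (chr15:101936402-101936814), were in both wild-type and 2 of 3 knockout lists. A peak missing from a list can lie just under the caller's threshold, and signal at these regions was not compared between the lists.

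**Figure D5:**
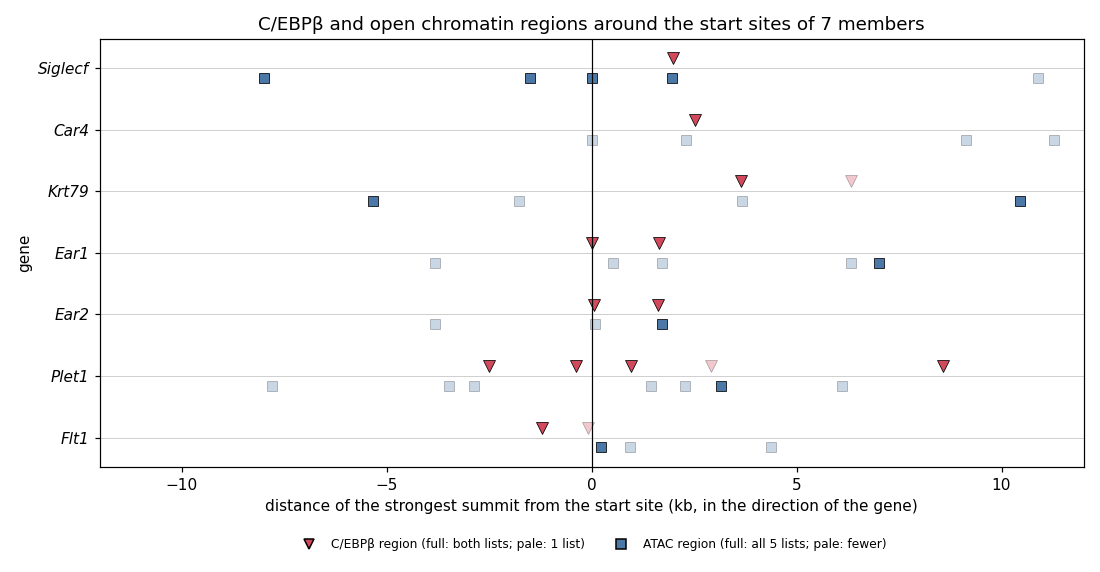
Distance of each region's strongest summit from the RefSeq start site (kb, in the direction of the gene) for C/EBPβ ChIP regions (triangles, full where both lists have the peak) and ATAC regions (squares, full where all 5 lists have it) of the 7 genes with a start site. Ear1 and Ear2 carry a full triangle at the start site and another downstream, and no Car4 square is full.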

How the data were processed

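The 3 deposited count tables hold whole counts per gene made by the authors, with STAR 2.6.1a, featureCounts 1.6.3 and GRCm38 named per the submitters' processing notes. The sources used here do not state whether molecule barcodes were collapsed or how reads shared by gene copies were treated. The deposited peak lists give each peak's −log10 p and −log10 q, its fold over local background (a ratio) and a score of 10 times the −log10 q, as the authors' peak caller wrote them, and MACS2 2.2.7.1 is named per the submitters' processing notes.

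Counts were tested with edgeR 4.0.16 in R 4.3.3 (TMM factors, filterByExpr with a minimum count of 10, robust quasi-likelihood F test), each experiment on its own libraries and each table apart. P-values were adjusted over all genes tested (Benjamini-Hochberg), genes were called at an adjusted p under 0.05, and SEs are the log2 fold change over the root of F. The fit was tested on simulated data. Differences of effects were contrasts within 1 table. Peaks overlapping by 1 bp were merged and linked to genes within 10 kb. DESeq2 1.42.0, RLE factors, no filter, a replicate block, single libraries left out, Ear1 and Ear2 summed and a fit of the whole table were alternatives.

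All 9 genes are named in every comparison, with the 3 genes most like each (Pearson r of log2(group mean CPM + 1), at least 20 CPM in a group). The genes and lists were chosen with earlier results of these data known. Replicate numbers are shared between groups, and the main tests used no pairing. Libraries were regarded as paired where, over 3 or more pairs, every r of same-numbered libraries was over 0.1. That held for Lip CD11b high against low (r 0.105 to 0.248, 4 pairs), with the pairing from the labels' replicate numbers. The values given for that comparison are unpaired, and pairing entered only through the replicate block. In 5 other comparisons every r was positive, the lowest of each between 0.016 and 0.098.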

Additional observations from a re-analysis of the deposited data

Results flagged for a closer look

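In 8 of 114 group levels of 4 libraries, 1 library stood apart from the rest of its group (chance gives about 1 in 20 such groups). Siglecf was at 106 CPM in CD11b low knockout replicate 1, and Car4 at 67.6 CPM in replicate 2 of that group. Car4 was also at 37 CPM in 5-week chimera knockout replicate 3 and at 606 CPM in chromatin-matched Lip wild-type replicate 3. Krt79 was at 81.7 CPM in chromatin-matched Lip replicate 3, Krt19 at 10.9 CPM in E18 Csf2rb wild-type replicate 1, Ear2 at 32.9 CPM in E18 Cebpb knockout replicate 1 and Flt1 at 431 CPM in chromatin-matched Lip wild-type replicate 1.

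The effect of a mutation differed between groups, by a test of the difference itself, in 29 cases. Between facility 2 and facility 1 females the log2 effects of the knockout differed for Siglecf (-2.82), Krt79 (-2.04), Krt19 (-4.33), Ear1 (-4.18), Ear2 (-2.33) and Plet1 (-2.44). Between males and the mean of the females they differed for Siglecf (2.93), Car4 (3.9), Krt79 (1.48), Krt19 (3.82), Ear1 (3.35), Ear2 (3.34) and Plet1 (1.92). Between 10 and 5 weeks in the chimeras they differed for Siglecf (-3.08), Krt79 (-4.32), Krt19 (-4.04), Ear1 (-3.81), Ear2 (-2.06) and Plet1 (-1.93). Lip and knockout effects differed in CD11b low cells for Siglecf (1.27), Car4 (4.83) and Flt1 (-7.77), and in CD11b high cells for Siglecf (2.39), Car4 (4.03), Krt19 (2.64), Ear2 (1.31), Plet1 (2.69) and Flt1 (-6.69). The Ear2 value was lost in 7 of the fits without a single library, with adjusted p up to 0.0931 without Lip wild-type replicate 3. At E18 the Csf2rb and Cebpb effects differed for Flt1 (2.91).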

How the results depend on the processing

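Over all results, the direction and the side of the threshold held in 226 of 228 values with RLE scaling, 217 of 228 with DESeq2, 217 of 228 with no filter on low counts, 201 of 228 with a replicate block, 154 of 179 in the whole-table fit, 35 of 45 with Ear1 and Ear2 summed, and 1690 of 1838 without single libraries. The cause of the changes was not tested.

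Of the 9 genes, 1 passed in heterozygotes, against 2 with RLE scaling, 2 with no filter, 3 with DESeq2, 2 with the replicate block (Krt79 and Flt1, not Car4) and 0 to 2 without single libraries (0 without wild-type replicate 2). The facility difference went from 6 to 3 with no filter. With the replicate block the chromatin-matched Lip count went from 5 to 3 and the E18 difference from 1 to 0, and Slc7a2 passed between Lip CD11b high and low cells (0.23, adjusted p = 0.0196), the paired comparison. In the other comparisons the libraries share only a number. In the chimeras at 10 weeks and the E18 Cebpb macrophages, each library with a numbered partner correlated best with it, as a hint from the data. Without single libraries, counts ran from 2 to 7 for the facility difference, 3 to 7 for males against females, 3 to 4 in males, 3 to 9 with LyzMCre, 4 to 7 at E18 without Csf2rb, 1 to 2 in Ly6Chi monocytes, 3 to 5 for chromatin-matched Lip and 1 to 2 for the E18 difference.

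The changes that turned sign had not passed as reported. Ear2 summed with Ear1 changed by -0.13 in males and -0.08 with LyzMCre. Krt19 in Lip CD11b low cells changed by 0.02 with the replicate block and 0.01 in the whole-table fit, and at 5 weeks by 0.11 with the block. Without single libraries, Slc7a2 ran from -0.02 to 0.23 and Plet1 from -0.32 to 0.02 in CD11b low knockouts. Between knockout fractions Krt79 ran from -1.0 to 0.48 and Slc7a2 from -0.04 to 0.17. At facility 1 Flt1 ran from -0.34 to 0.66 (knockout against heterozygote) and Plet1 from -1.71 to 0.06. Ear2 ran from -0.01 to 0.28 in males and -0.41 to 0.43 with LyzMCre (past the threshold in both of these fits, each with 1 deleted library left, adjusted p = 0.0393 and 0.0171), and Plet1 there from -0.14 to 0.65. Krt19 ran from -0.17 to 0.06 in Lip CD11b low cells and Flt1 from -0.73 to 0.05 between Lip fractions. At 5 weeks Krt19 ran from -0.63 to 0.74 and Siglecf from -0.03 to 0.21. Ear1 ran from -0.08 to 0.48 for Lip against knockout in CD11b low cells, and in the E18 difference Car4 ran from -5.86 to 0.48 and Slc7a2 from -2.31 to 0.88.

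Groups of 2 to 4 libraries and totals down to 642269 counts limit these tests, and genes at a few counts have no usable fold.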
